A study of Mus musculus with 4 samples.

Results

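The co-receptors, adaptors and kinases that link Toll-like receptors to the cell interior were followed in RAW264.7, an established mouse macrophage-like line. The set holds 10 genes, namely the co-receptors Cd14 and Ly96, the adaptors Myd88, Tirap, Ticam1 and Ticam2, and the kinases Irak1, Irak2, Irak3 and Irak4. They were found by gene name on the array, where 14 of 55681 distinct probes read them, out of 36095 genes or names in all. Of the 10 genes, 7 had 1 probe each, Irak2 and Irak4 had 2, and Irak1 had 3. All 10 passed the filter on dim signals, which asked for a gene to be well above background on 2 or more of the 4 arrays.

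The 4 cultures were cells with a stably integrated knockdown vector under AEPS, cells with a scramble vector under AEPS, cells with that knockdown vector in DMEM medium, and cells with the scramble vector in DMEM. The knockdown vector is directed at Linc-AAM, which is a long RNA made between genes that codes for no protein. AEPS is a polysaccharide prepared from Actinidia eriantha roots, given at 50 µg/mL, and every culture was kept for 4 h. Both vectors express an artificial microRNA together with a green fluorescent protein (pcDNA6.2-GW/EmGFP-miR), and the integrants were selected with blasticidin as bulk cultures and not as clones, so that no culture without a vector was compared. Each culture was read on 1 Agilent array in 1 colour, so no group had a replicate.

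Toll-like receptors sense microbial molecules. Cd14 and Ly96 present lipopolysaccharide to Tlr4. Most of the receptors then recruit Myd88, for some of them through the sorting adaptor Tirap, and Myd88 gathers Irak4 with Irak1 and Irak2 into a complex that leads to NF-kappaB activation and cytokine genes. Ticam1, also called TRIF, is the adaptor of Tlr3, and Ticam2, also called TRAM, carries it to Tlr4, which leads to Tbk1, Ikbke and type I interferon. Irak3, also called IRAK-M, lacks kinase activity in macrophages and restrains this signalling.

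Levels are given as log2 of the processed spot intensity minus the log2 of the 75th percentile of that array, so a value of 0 is the brightness of the 75th percentile spot. These values compare arrays for 1 probe and do not rank genes. The 75th percentile lay between 439.1 and 587.7 intensity units, 53.4% to 58% of spots were well above background, and 0 spots were saturated. Of 9 macrophage markers, 8 were well above background on all 4 arrays, among them Csf1r, Itgam and Spi1, and Mrc1 was on 2. The 3 epithelial markers (Epcam, Krt8 and Cdh1) were on none, nor were Ms4a1, Mpo and Col3a1, whereas Cd3e, Cd79a, Elane and the fibroblast marker Pdgfrb were well above background on every array and Col1a1 on 3. The summed level of the macrophage markers, as ratios to the 75th percentile, was 466 and 493 under AEPS on the arrays labelled knockdown and scramble, against 602 and 621 in DMEM in the same order. Most of that sum is Csf1r, at 8.49 and 8.36 against 8.92 and 8.81 on the log2 scale. Lyz2 and Fcgr3 also lay lower under AEPS in both lines, Lyz2 at 6.07 and 6.97 against 6.34 and 7.11. Adgre1, Itgam, Spi1 and the dim Mrc1 lay higher under AEPS in both lines, Spi1 at 2.13 and 2.23 against 1.58 and 1.27. Cd68 and Marco lay lower under AEPS on the arrays labelled knockdown and higher on those labelled scramble. The part of these markers in the differences below was not tested. The summed level was 2.78 and 2.78 against 2.07 and 2.21 for the neutrophil markers (Ly6g was not matched by name), and 0.207 and 0.208 against 0.074 and 0.082 for the 3 fibroblast markers, in the same order. In bulk cultures, fewer cells of a type and less RNA per cell cannot be told apart.

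The authors' value table and the scanner files name the lines in opposite ways. Over probes well above background on all 4 arrays, each column of the table ranked the probes as the other line's scanner file of the same medium did (Spearman rho across probes of 1 after rounding) and less closely as its own did (0.98937 to 0.99038). Lines are named here as on the scanner files, and each difference between lines takes the opposite sign under the table's labels. The AEPS difference over both lines does not depend on this.

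The probe sequences for the genes that the results turn on are shown first, because a probe, not a whole gene, is what each value reads. They are given 5′ to 3′ as in the array design, with mm9 coordinates, and for probes near the transcript's 3′ end as the first 30 of 60 bases. The probe of Irak4 that spans 728 bases of the genome crosses an intron. Where each probe lies among coding and untranslated exons was not analysed here.
Myd88, chr9:119245322-119245381: ggtttgcatcttcttattcctttcacgttc
Ticam1, chr17:56409265-56409324: agagtgaccaggttggaccccacctagatg
Irak3, chr10:119578999-119579058: ttaccaccggcacttaatgctagtctttct
Irak4 probe 1, chr15:94384447-94385174: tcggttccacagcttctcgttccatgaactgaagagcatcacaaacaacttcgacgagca
Irak4 probe 2, chr15:94397743-94397802: caacatcaccaaactatagtgaacttaaga
Irak2 probe 1, chr6:113643695-113643754: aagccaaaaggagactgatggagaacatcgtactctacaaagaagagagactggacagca

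The second probe of Irak2 is of another kind. It shares a run of 18 bases with probes that the array assigns to Timmdc1 and, on the opposite strand, Pclaf. The other 13 probes of the set share no run of 18 bases with a probe of another gene.

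AEPS went with higher signal of a co-receptor, of 2 adaptors and of an inhibitory kinase, and with lower signal of the dim Irak4. In an additive limma model of line and medium over 22338 genes (Benjamini-Hochberg adjusted p under 0.05), 4 of the 10 genes rose with AEPS, where 7.40% of all genes tested rose. They were Ticam1, Irak3, Cd14 and Myd88, with fitted folds of 3.24, 2.86, 2.82 and 1.72. Irak4 fell to a fitted fold of 0.60, where 7.29% of all genes fell. The median over the 10 genes was 0.48 on the log2 scale, against 0.07 over all genes tested. The model has 1 residual degree of freedom, which comes from how unlike the responses of both lines were. In limma, each variance is drawn toward a prior over all genes, here with 2.82 degrees of freedom and an SD of 0.1318. Most of each SE is thus shared over genes and is not the gene's own spread. A p-value reflects these 4 arrays and no repeated cultures. An unadjusted p under 0.05 was reached by 6 of the 10, the sixth being Irak2, where 33.9% of all genes tested did so. Without the filter on dim genes 0 of the 10 were called, and the adjusted p of those 5 genes lay between 0.0639 (Ticam1) and 0.194 (Irak4).

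**Figure D1:**
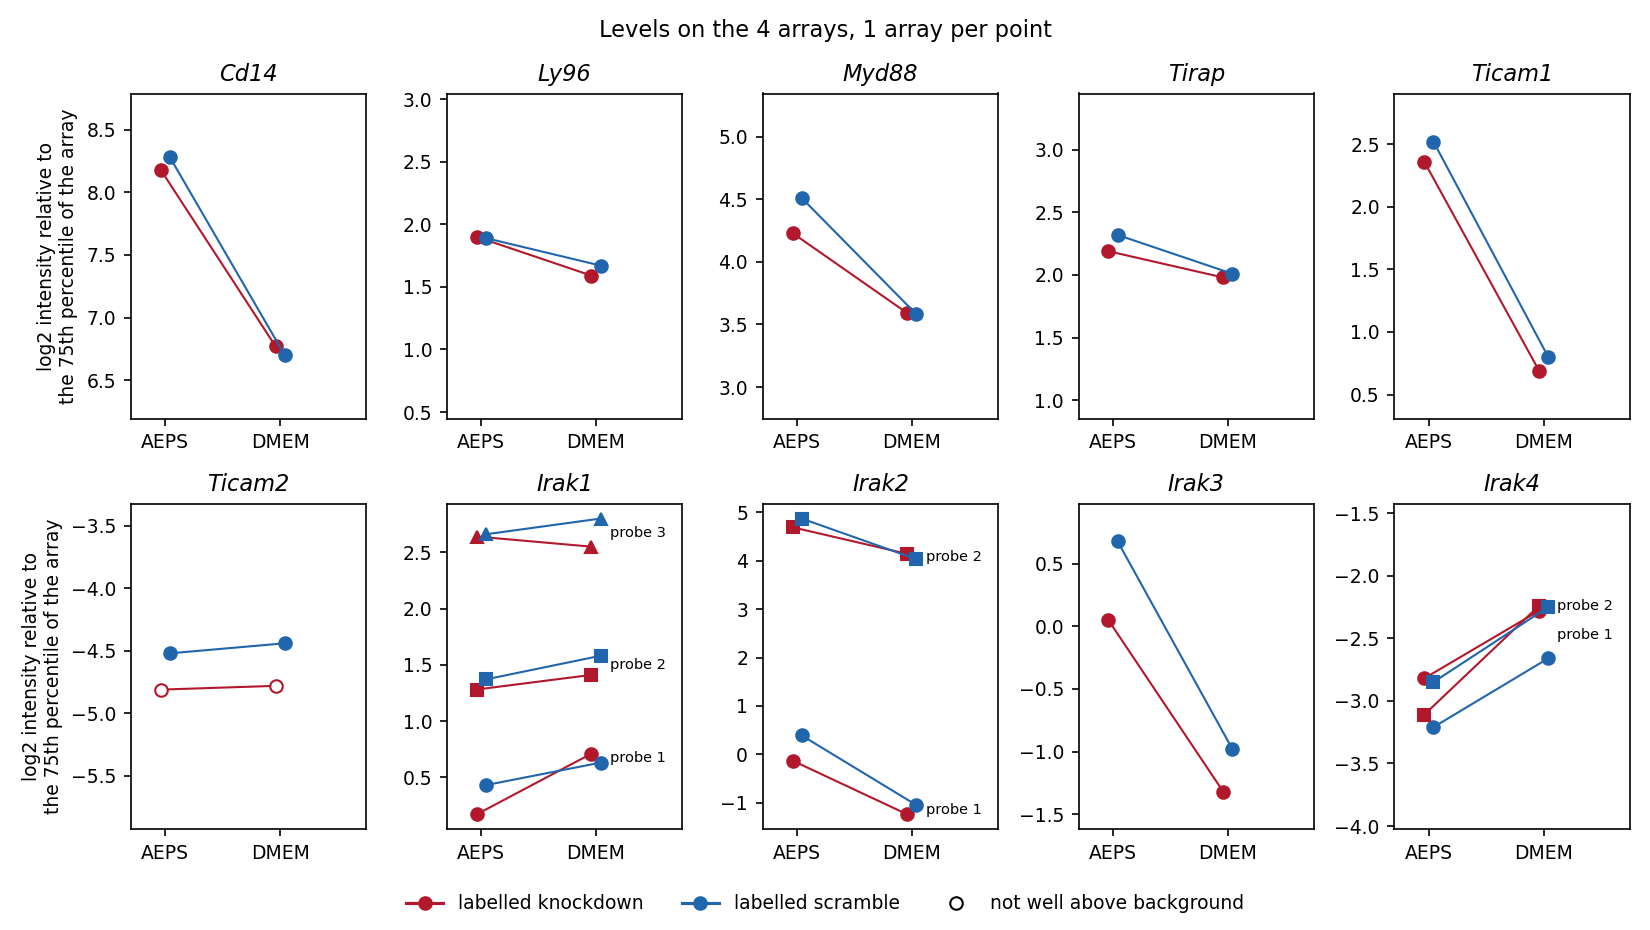
Level of each of the 14 probes on the 4 arrays (y axis, log2 intensity relative to the 75th percentile of the array; each panel spans its own range), under AEPS and in DMEM (x axis). Red marks the arrays labelled knockdown and blue those labelled scramble, each point is 1 array, open points are not well above background, and lines join the arrays of a line. Cd14, Ly96, Myd88, Tirap, Ticam1, Irak2 and Irak3 lie higher under AEPS in both lines. Both Irak4 probes and Irak1 probes 1 and 2 lie lower in both. The dim Ticam2 lies lower on the array labelled scramble, and its points on the arrays labelled knockdown are not well above background.

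Cd14, which binds lipopolysaccharide and hands it to the receptor, had 8.18 and 8.28 on the arrays labelled knockdown and scramble under AEPS, against 6.77 and 6.70 in DMEM in the same order (mm9, chromosome 18, 36884969 to 36885028). Both AEPS arrays lay above both DMEM arrays. The processed intensity of this probe was 130328 and 158118 under AEPS and 47866 and 60939 in DMEM, with no spot marked as saturated. By limma, Cd14 was higher by a log2 difference of 1.50 ± 0.12 (SE; adjusted p = 0.0127), and the difference was 1.42 on the arrays labelled knockdown and 1.58 on those labelled scramble. Under quantile normalization these became 1.20 and 1.38.

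Ly96 encodes the lipid-binding partner of Tlr4. Its probe, whose 60 bases span 3273 bases of chromosome 1 (16696289 to 16699561) and so cross an intron, had 1.90 and 1.89 under AEPS on the arrays labelled knockdown and scramble, against 1.59 and 1.67 in DMEM. The AEPS arrays lay above the DMEM arrays by 0.30 and 0.22, and the difference did not pass the test (0.26 ± 0.12, SE; limma adjusted p = 0.204). In the lines labelled knockdown and scramble, the AEPS difference was thus 2.67-fold and 2.99-fold for Cd14 and 1.24-fold and 1.17-fold for Ly96, and the difference between these co-receptors was not tested.

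Among the adaptors, Ticam1 had the largest difference of the whole set. Its level was 2.36 and 2.52 under AEPS on the arrays labelled knockdown and scramble, against 0.69 and 0.80 in DMEM. Both AEPS arrays lay above both DMEM arrays, with 1 array per group, and the lines lay within 0.16 of each other in either medium. Ticam1 rose by 1.70 ± 0.11 (SE; limma adjusted p = 0.00971), which was 3.18-fold on the arrays labelled knockdown and 3.30-fold on those labelled scramble.

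Myd88, the adaptor shared by most Toll-like receptors, was printed in 10 spots, and it is the one member with a measured error within an array. Its level was 4.23 and 4.51 under AEPS on the arrays labelled knockdown and scramble, against 3.59 and 3.58 in DMEM, with SDs between spots of 0.029 and 0.047 under AEPS and 0.039 and 0.032 in DMEM (n = 9, 10, 10 and 9 spots in that order). Both AEPS arrays were the higher ones, by far more than the spread between spots, which covers technical error of the array and not of the culture. Myd88 rose by 0.78 ± 0.14 (SE; limma adjusted p = 0.0425), or 1.55-fold and 1.91-fold in the lines labelled knockdown and scramble. This call was lost with quantile normalization (limma adjusted p = 0.0606), with the 75th percentile taken over detected probes (0.0578), with only 1 term in the model (0.0672), without the filter (0.181) and on the authors' value table (0.0608). Over the 9 alternatives run, the adjusted p ranged from 0.00107 to 0.181.

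Tirap, which brings Myd88 to the membrane, had 2.19 and 2.32 under AEPS and 1.98 and 2.01 in DMEM, on the arrays labelled knockdown and scramble (chromosome 9, 34994936 to 34994995). AEPS arrays were higher by 0.21 and 0.31, and the test was not passed (0.26 ± 0.12, SE; limma adjusted p = 0.211). Ticam2 was near the detection limit. It was well above background on both arrays labelled scramble, at -4.52 under AEPS and -4.44 in DMEM, and not on those labelled knockdown, at -4.81 and -4.78 (chromosome 18, 46718692 to 46718751). On the arrays labelled scramble its AEPS difference was -0.09. Ticam2, the partner of Ticam1 at Tlr4, was not called with AEPS (limma adjusted p = 0.741, with the values as measured on the dim arrays), and the difference between both adaptors was not tested.

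Of the kinases, Irak3 changed most. Its level was 0.05 and 0.68 under AEPS on the arrays labelled knockdown and scramble, against -1.32 and -0.98 in DMEM. Both AEPS arrays lay above both DMEM arrays, and within each medium the array labelled knockdown was the lower one. Irak3 rose by 1.52 ± 0.13 (SE; limma adjusted p = 0.0141), with 2.59-fold on the arrays labelled knockdown and 3.15-fold on those labelled scramble.

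Irak2, a kinase of the Myd88 complex, was read by 2 probes that both lay higher under AEPS and differed in size. Probe 1 had -0.13 and 0.39 under AEPS on the arrays labelled knockdown and scramble, against -1.24 and -1.05 in DMEM. Probe 2, with the shared run, had 4.69 and 4.87 under AEPS and 4.14 and 4.03 in DMEM. The AEPS difference was 2.16-fold and 2.72-fold by probe 1, on the arrays labelled knockdown and scramble, and 1.46-fold and 1.79-fold by probe 2. The probes that share the run moved differently, as Timmdc1 had AEPS differences of 0.32 and 0.38 on the log2 scale and Pclaf of -0.13 and -0.33 in the same order of lines. Whether the shared run bears on the size at probe 2 was not tested.

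The rule of taking the brightest probe picks probe 2, by which Irak2 missed the threshold (0.69 ± 0.14, SE; limma adjusted p = 0.0522). A fit of each probe on its own, chosen after the probe values were seen, took in 31268 probes, of which 6.89% rose and 6.86% fell. In it 5 of the 14 probes of the set rose and 1 fell. Irak2 probe 1 rose by 1.28 ± 0.15 (SE; limma adjusted p = 0.0221), and probe 2 again did not pass (limma adjusted p = 0.0562). With the mean over both probes, Irak2 was called (limma adjusted p = 0.0292), and over the 9 alternatives its adjusted p ranged from 0.00165 to 0.215.

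Irak4, the kinase that activates Irak1 and Irak2, was the one gene of the set that fell. Its probe 2 had -3.11 and -2.85 under AEPS on the arrays labelled knockdown and scramble, against -2.24 and -2.25 in DMEM. Probe 1, across the intron, had -2.82 and -3.21 under AEPS against -2.28 and -2.66 in DMEM. By either probe, each AEPS array was below the DMEM array of its line. Both probes were dim, though well above background on every array. The processed intensity of probe 2 was 51.8 and 70.9 under AEPS and 93.3 and 123.6 in DMEM. Irak4 fell by 0.74 (log2, SE 0.13; limma adjusted p = 0.0457) by the brighter probe 2. The call was lost with the 75th percentile over detected probes (limma adjusted p = 0.0509), with only 1 term (0.0703) and without the filter (0.194), and normexp gave a smaller difference of -0.41 (0.0346), with -0.49 and -0.33 in the lines labelled knockdown and scramble. Probe 1 had -0.54 ± 0.12 (SE) and did not pass in the fit over all probes (limma adjusted p = 0.0634).

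Irak1, the other kinase of the complex, did not pass the test by any of its 3 probes. Probe 1 (chromosome X, 71262475 to 71262534) had 0.17 and 0.43 under AEPS on the arrays labelled knockdown and scramble, against 0.71 and 0.63 in DMEM. Probe 2 (71260779 to 71260838) had 1.28 and 1.37 against 1.41 and 1.58, and the array design assigns it to another transcript than the other two. Probe 3 (71259533 to 71259592), the brightest, had 2.64 and 2.66 against 2.55 and 2.80. Probes 1 and 2 lay lower under AEPS in both lines, and probe 3 lay higher on the array labelled knockdown and lower on that labelled scramble. The fitted differences were -0.37 ± 0.15, -0.17 ± 0.12 and -0.03 ± 0.13 by probes 1, 2 and 3 (SE), with limma adjusted p of 0.179, 0.395 and 0.909 in the fit over all probes.

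**Figure D2:**
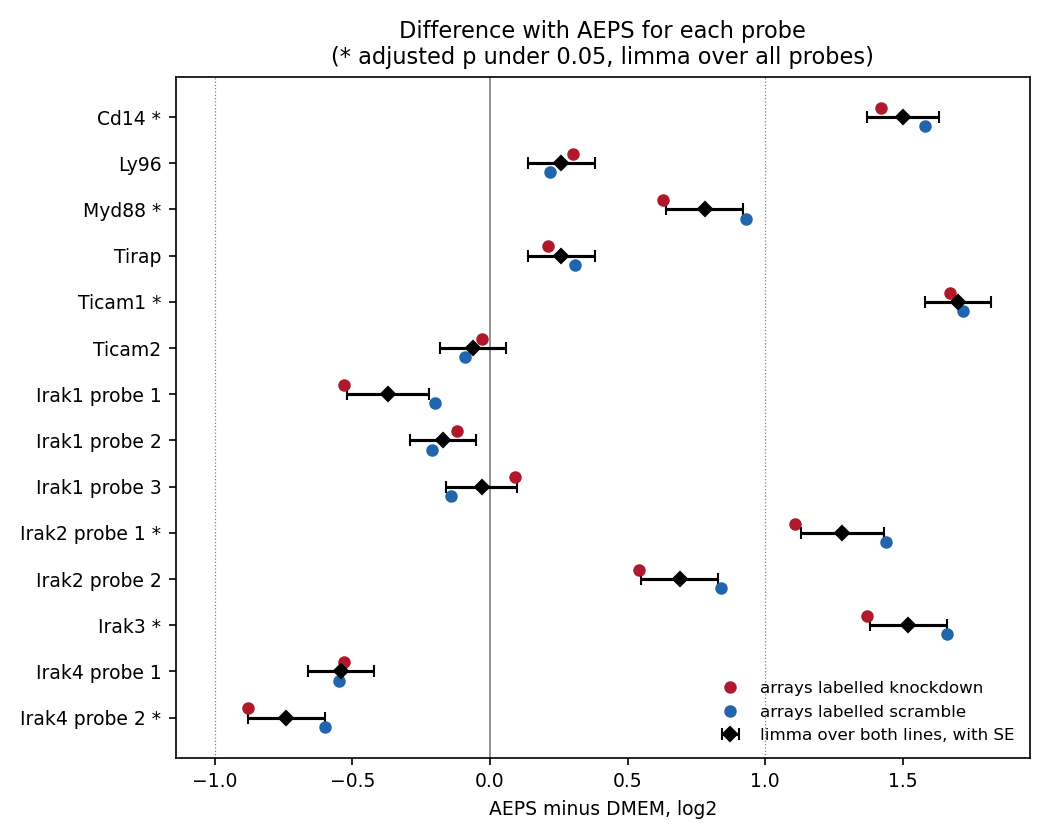
Difference between AEPS and DMEM for each of the 14 probes (x axis, log2, rows by role). Red and blue points are the arrays labelled knockdown and scramble, black diamonds the limma estimate over both lines with its SE, dotted lines 2-fold, and stars an adjusted p under 0.05 in the fit over all probes. Cd14, Myd88, Ticam1, Irak2 probe 1 and Irak3 carry a star on the higher side and Irak4 probe 2 on the lower side.

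Compared array by array with the brightest probe of each gene, Cd14, Ticam1 and Irak3 were at least 2-fold higher under AEPS in each line, which has no replicate check. Irak2 was so by its probe 1 only, and with the mean over probes 4 genes were on the arrays labelled scramble. By the brightest probe they were 3 of 9 measurable genes on the arrays labelled knockdown, where 4.64% of all genes were at least 2-fold higher, and 3 of 10 on those labelled scramble, where 6.69% were. None of the set was at least 2-fold lower in either line, where 3.49% and 5.22% of genes were.

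The genes whose levels over the 4 arrays were most like those of these 3, among 12269 genes that have an official-style symbol and were well above background on every array, were Slc2a1 and Dlgap4 for Cd14, Agrn and Mapkapk2 for Ticam1, and Smox and Tlr2 for Irak3. Likeness was the Euclidean distance between log2 levels centred on each gene's own mean. It was 0.035 and 0.059 for the genes next to Cd14, 0.045 and 0.048 for those next to Ticam1, and 0.122 and 0.143 for those next to Irak3.

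The difference between the lines asks whether the vector against Linc-AAM goes with another level of these genes. By limma, 0 of the 10 genes differed between lines, where the arrays labelled knockdown were higher for 0.398% of all genes tested and lower for 0.340%. At an unadjusted p under 0.05 there was 1, Irak3, at -0.48 ± 0.13 (SE; limma adjusted p = 0.266), where 14.6% of all genes tested were under it. Array by array, 0 genes of the set reached 2-fold in either medium. That count includes Ticam2, although its spots on the arrays labelled knockdown were not well above background. The background was 1.85% higher and 2.69% lower under AEPS, and 2.36% higher and 1.51% lower in DMEM. The median over the set was -0.17 under AEPS and -0.05 in DMEM, against 0.00 over all genes in both media.

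Irak3 had the largest line difference of the set under AEPS, -0.62 as knockdown minus scramble, and -0.34 in DMEM. Irak2 probe 1 had -0.52 and -0.19, and its probe 2 had -0.18 and 0.12. Myd88 had -0.29 under AEPS and 0.01 in DMEM. In DMEM the lines were thus close for Myd88, and under AEPS the array labelled knockdown was the lower one.

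The Irak4 probes gave opposite directions of the line difference under AEPS. Probe 1 was higher on the arrays labelled knockdown, by 0.40 under AEPS and 0.37 in DMEM, while probe 2 had -0.27 and 0.01. Ticam2 passed the filter on dim signals through the scramble arrays alone, and its knockdown spots were too dim to count. A higher scramble level is thus favoured by the filter itself, and the size of the line difference cannot be bounded. As measured, knockdown minus scramble was -0.29 under AEPS and -0.34 in DMEM. Its fitted line difference was -0.31 ± 0.11 (SE; limma adjusted p = 0.353). With normexp background correction the measured differences turned to 0.09 under AEPS and 0.16 in DMEM, so its direction depends on that correction.

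**Figure D3:**
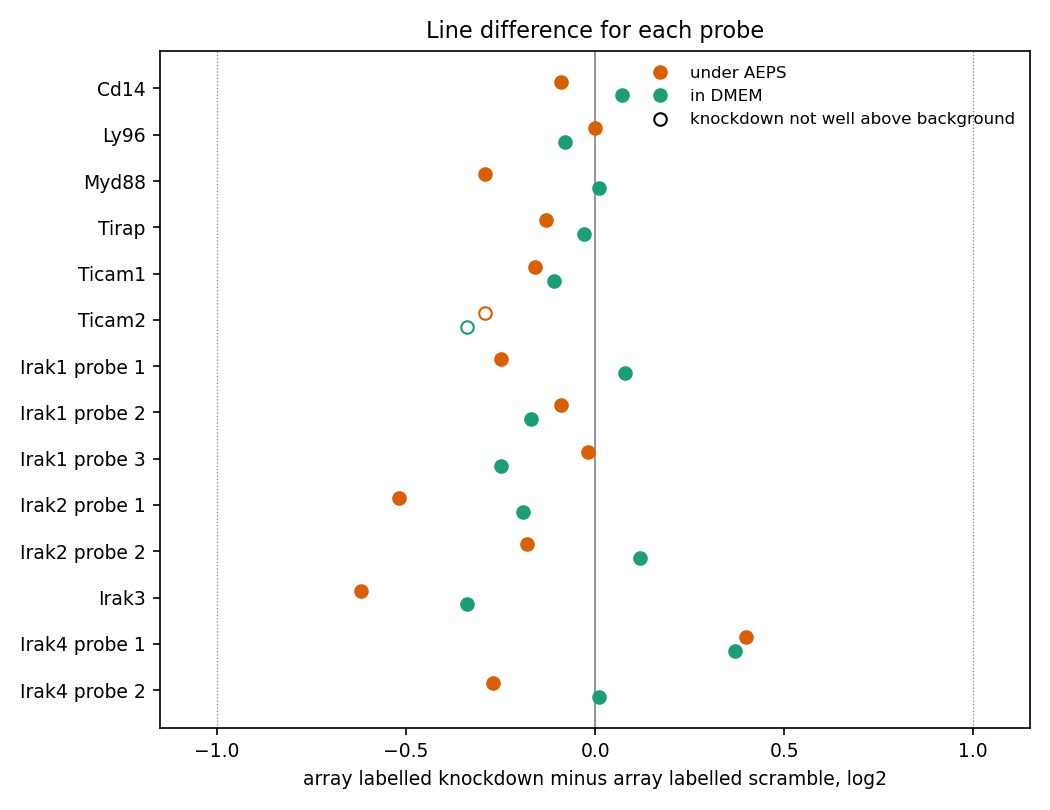
Array labelled knockdown minus array labelled scramble for each of the 14 probes (x axis, log2, rows by role), under AEPS in orange and in DMEM in green, 1 difference per point. Open points mark Ticam2, not well above background on the arrays labelled knockdown, and dotted lines mark 2-fold. No point reaches 2-fold, and Irak3 under AEPS, at -0.62, lies farthest from 0.

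The difference in the AEPS response, knockdown minus scramble, leaves no residual degree of freedom and so has no test. It was -0.30 for Myd88, -0.28 for Irak3, -0.17 for Cd14 and -0.05 for Ticam1. No gene of the set reached a difference of 1 on the log2 scale, where 0.526% of genes were at or above 1 and 1.63% at or below -1. The AEPS difference was smaller on the arrays labelled knockdown for all 4 genes called higher. Likewise it was smaller for 949 (71.2%) of the 1332 genes called higher that were well above background on all 4 arrays. The median difference was -0.22 over those 4 genes and -0.17 over the 1332. For Irak4, the gene called lower, the fall was instead larger on the arrays labelled knockdown, at -0.88 against -0.6.

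Around these genes, the rest of the pathway was described with 4 lists of its receptors, accessory proteins, downstream enzymes and regulators. Of 8 tested receptors 3 rose and 2 fell with AEPS by limma, where 7.40% of all genes rose and 7.29% fell. Tlr1, which pairs with Tlr2 to bind bacterial lipopeptides, rose by 2.54 ± 0.14 (SE; limma adjusted p = 0.00795), Tlr2 by 1.57 and Tlr6, another partner of Tlr2, by 1.19. The receptor Tlr4, which Cd14 and Ly96 serve, fell by 1.68, and Tlr13, a sensor of bacterial ribosomal RNA, fell by 1.73 (limma adjusted p = 0.0333). The median over the 8 receptors was 0.25, against 0.07 over all genes tested.

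Of 8 tested accessory proteins 1 rose and 1 fell, which is near the share over all genes. Cd180, a relative of Tlr4 that pairs with Ly86, rose by 0.77 ± 0.12 (SE; limma adjusted p = 0.0333), and Cnpy4 fell by 0.73 (0.0389). Of 16 downstream kinases and ubiquitin enzymes 3 rose and 1 fell, where 7.40% of all genes tested rose and 7.29% fell. Ikbke, a kinase of the interferon branch below Ticam1, rose by 3.86 ± 0.19 (limma adjusted p = 0.00736). Peli1, a ubiquitin ligase that acts on Irak1, rose by 3.45, and Tab2, which couples ubiquitin chains to the kinase Map3k7, by 1.06. Ripk1, a kinase that binds Ticam1, fell by 0.61 (limma adjusted p = 0.0483).

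Of 13 other regulators of this signalling 4 rose and 3 fell, where 7.40% of all genes tested rose and 7.29% fell. Tnfaip3, the deubiquitinase A20 that restrains NF-kappaB, rose by 4.58, and Irf7, a transcription factor of interferon genes, by 2.91 ± 0.38 (SE; limma adjusted p = 0.026). Pik3ap1 and Il1rl1 rose by 0.80 and 0.60. Tifa fell by 1.61, Inpp5d, a lipid phosphatase, by 1.55, and Sigirr, an inhibitory receptor of the family, by 0.92 (limma adjusted p = 0.0239). The medians were 0.08 over the accessory proteins, 0.29 over the downstream enzymes and -0.02 over the regulators. Between lines 0 genes of any list differed, where the arrays labelled knockdown were higher for 0.398% of all genes tested and lower for 0.340%.

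**Figure D4:**
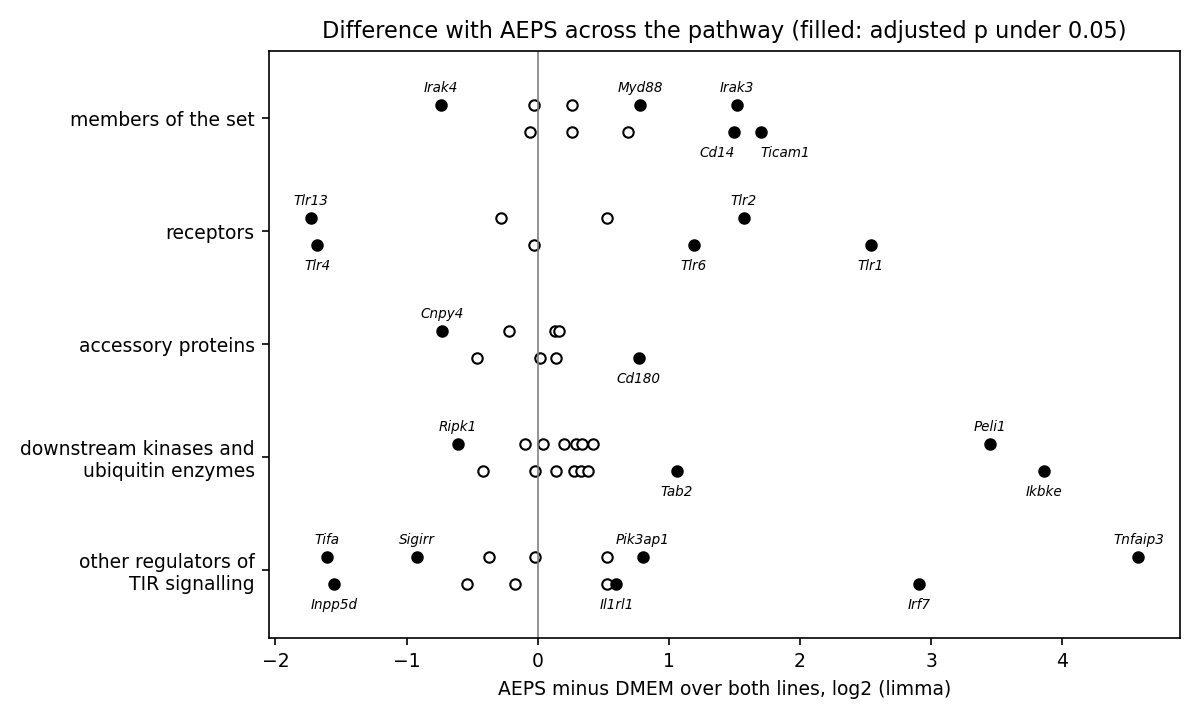
AEPS difference over both lines (x axis, log2, limma) for each tested gene of the set and of the 4 lists of other pathway genes (rows). Each point is 1 gene, and filled, named points have an adjusted p under 0.05. Tnfaip3, Ikbke and Peli1 lie farthest to the right, at 4.58, 3.86 and 3.45, beyond every gene of the set, whose highest is Ticam1 at 1.70.

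The promoters of 3 genes that rose are shown with that of Irak1, which did not pass the test, because their sequences can be set beside the responses. Promoters were taken from RefSeq (GRCm38.p6) as the 250 bases before a start site. In all, 10 promoters were matched by symbol for 7 of the 10 genes. The 4 motifs were searched on both strands, namely the kappaB consensus, the interferon-response type (a pair of TTTC half-sites in the same direction with 2 bases of any kind between them), TGANTCA and TGACGTCA. Capitals mark a match on either strand.
Myd88, chr9:119340019-119340268, minus strand: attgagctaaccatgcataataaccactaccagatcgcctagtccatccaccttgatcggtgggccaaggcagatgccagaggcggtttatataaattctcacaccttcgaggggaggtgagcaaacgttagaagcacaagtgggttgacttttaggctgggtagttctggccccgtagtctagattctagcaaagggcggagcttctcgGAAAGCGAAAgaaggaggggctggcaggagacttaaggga
Ticam1, chr17:56276768-56277017, minus strand: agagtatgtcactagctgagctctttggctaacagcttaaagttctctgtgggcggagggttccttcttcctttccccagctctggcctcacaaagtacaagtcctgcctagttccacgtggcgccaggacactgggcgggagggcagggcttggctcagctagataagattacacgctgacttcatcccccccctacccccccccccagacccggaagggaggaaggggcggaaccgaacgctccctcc
Irak3, outer of 2 start sites, chr10:120202131-120202380, minus strand: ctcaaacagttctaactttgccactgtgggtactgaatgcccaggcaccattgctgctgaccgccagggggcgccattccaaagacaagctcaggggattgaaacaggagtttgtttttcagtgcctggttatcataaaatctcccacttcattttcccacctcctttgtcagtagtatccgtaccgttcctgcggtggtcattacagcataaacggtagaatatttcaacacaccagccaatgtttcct
Irak1, outer of 2 start sites, chrX:74023922-74024171, minus strand: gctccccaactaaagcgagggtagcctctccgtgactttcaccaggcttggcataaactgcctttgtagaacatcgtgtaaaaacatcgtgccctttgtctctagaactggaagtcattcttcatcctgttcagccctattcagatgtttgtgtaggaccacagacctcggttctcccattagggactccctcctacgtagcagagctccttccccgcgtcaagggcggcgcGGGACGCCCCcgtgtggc

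The Myd88 promoter held GAAAGCGAAA, the interferon-response type read on the other strand, 40 to 31 bases before the start. That motif is in 2.98% of 32851 promoters. Both Irak1 promoters held GGGACGCCCC, a kappaB match on both strands, which lies 18 to 9 bases before the outer start. The windows of these promoters overlap, so that they share the same site. Of all promoters, 7.25% hold such a match. TGANTCA and TGACGTCA were in none of the 10, against 6.75% and 1.55% of all. The printed windows of Ticam1 and Irak3, the genes with the largest AEPS differences, held none of the motifs, which says only that these letters are not in this window.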

How the data were processed

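The deposited scanner files hold linear spot intensities, background-subtracted within each array per the file headers. Agilent Feature Extraction made them, per the submitters' processing notes, and the headers give 10.7.1.1 as its version. The authors' deposited value table is on a log2 scale and served as an alternative. The sources used here do not state how it was made. Its columns look quantile-normalized. All 4 arrays lay on 1 slide with 1 scan day. Probe coordinates are those of mm9 in the files.

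From these, log2 of the processed intensity minus the 75th percentile of each array over non-control spots was computed, without control and outlier spots, averaging the spots of a probe. A gene took its brightest probe. Genes that stood well above background on at least 2 arrays entered an additive model of line and medium in limma 3.58.1 (R 4.3.3). Calls were made at a Benjamini-Hochberg adjusted p under 0.05. The fit was tested on simulated data in which the response did not differ between lines, which does not measure the error of the calls made here. Pairs of arrays were compared by size at 2-fold, with no test. Because every group has 1 array, their number limits the precision.

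Named pathway genes were those called, up to the 4 largest effects each way per list. The genes of the set, the lists and the tests were chosen with earlier results of these data known. The alternatives were normexp with an offset of 50, quantile normalization, other percentiles, filters, probe choices and variance models, and the value table. A marker gene and some sequence are not reported here.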

Additional observations from a re-analysis of the deposited data

Results flagged for a closer look

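Irak1 probe 3 differed in direction between the lines. Under AEPS it was higher by 0.09 on the log2 scale on the array labelled knockdown and had a difference of -0.14 on that labelled scramble. Each is a difference of 1 array from 1 array, and the difference between the lines was not tested.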

How the results depend on the processing

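The number of genes of the set called with AEPS was 4 higher and 1 lower. It became 0 higher and 0 lower with no filter on dim genes, 2 higher (Cd14 and Ticam1) and 0 lower with only 1 term in the model, and 0 lower with the 75th percentile over detected probes. Without the filter the prior SD was 0.2012, against 0.1318. Irak4 had a limma adjusted p of 0.0509 with the detected-probe percentile and 0.0703 with 1 term, and Irak3 had 0.0612 with 1 term. Irak2 was called with normexp (0.00468), the all-array filter (0.0253), an intensity trend (0.00165) and the mean of probes. No AEPS difference called by limma changed sign, and 0 line differences of the set were called in any setting. Over all genes, the counts that rose and fell with AEPS were 1653 and 1629, against 271 and 32 without the filter, 735 and 583 with 1 term, 3621 and 3073 with the trend and 2524 and 2576 with normexp. Quantile normalization gave 1488 and 1900, and the authors' deposited values gave 1486 and 1897. The line counts were 89 higher and 76 lower, against 0 and 0 without the filter or with 1 term, 50 and 41 with the detected-probe percentile, 187 and 150 with the all-array filter, 419 and 322 with normexp and 580 and 707 with the trend. No paired analysis was possible because each group has 1 array and all carry the same replicate number, so that no number could serve as a block. The line is already a term of the model. Ticam2 was limited by signal over background.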

Other observations

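Outside the set, the size of the AEPS difference in each line varied among the called genes of the pathway. It was 2.19 on the arrays labelled knockdown and 3.63 on those labelled scramble for Irf7, 4.25 and 4.90 for Tnfaip3, 3.18 and 3.72 for Peli1, and 3.57 and 4.15 for Ikbke. Tab2 and Cd180 had the larger value on the arrays labelled knockdown, 1.22 against 0.90 for Tab2 and 0.83 against 0.71 for Cd180. These differences between lines have no test, and they take the opposite sign under the labels of the value table.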
